A study of Mus musculus with 5 samples.

Results

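The mitochondrial respiratory chain and ATP synthase are represented here by 168 probe sets of 85 genes. A probe set is the group of oligonucleotides on an array that reports 1 transcript. Members were all probe sets with exactly 1 annotated symbol beginning with Ndufa, Ndufb, Ndufc, Ndufs, Ndufv, Uqcr, Cox4 to Cox8 or Atp5, out of 34945 probe sets of 18193 genes with 1 symbol. The names also bring in 8 assembly factors of complex I (Ndufaf genes) and Cox7a2l, a supercomplex factor, which are given apart. The common dendritic cell progenitor (CDP, 3 arrays), a marrow cell committed to making dendritic cells, was compared with the common myeloid progenitor (CMP, 2 arrays), an earlier cell that also gives rise to other myeloid lineages. All cells were from the bone marrow of wild type mice on the C57BL/6 strain, and no treatment is stated. CDP were lineage-negative, c-Kit intermediate and Sca-1-negative, with CD34, Flk2 and CD115 but no CD16/32. CMP were lineage-negative, c-Kit high and negative for Sca-1, CD11c, CD16/32 and CD115, with CD34 and Flk2. Ages of the mice and pooling of animals are not given in the sources used here, and arrays are not said to be of different animals, so the p-values may measure technical spread.

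The respiratory chain sits in the inner mitochondrial membrane. Complex I takes electrons from NADH and complex II from succinate, complex III passes them on through cytochrome c, and complex IV gives them to oxygen, while complexes I, III and IV pump protons that drive ATP synthase, also called complex V. Most subunits are encoded in the nucleus, a few core ones by mitochondrial DNA, and dedicated factors assemble them. Myeloid progenitors are known to change their reliance on glycolysis and respiration as they differentiate.

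Several facts about the arrays bear on every value below. RNA from 10000 to 30000 sorted cells was amplified in 2 rounds, and values are log2 of GCRMA intensity. Probe signal for the 5′ part of beta-actin lay 8.05 log2 units below that for the 3′ part on CDP 1 and 7.35 below on CMP 1, against 1.81 to 4.48 on the other 3 arrays. CDP 1 and CMP 1 are called the arrays low in 5′ signal. With Gapdh as the control, the 5′ part lay 4.64 below the 3′ part on CDP 1 and 4.71 on CMP 1. It lay 6.60 below on CDP 3, the largest gap, 3.88 on CDP 2 and 3.22 on CMP 2. Gapdh thus did not set the same arrays apart, and the split used below rests on beta-actin alone. The sorting markers went with the labels: Kit averaged 7.54 ± 0.31 in CDP and 10.12 ± 0.11 in CMP, and Csf1r, which encodes CD115, 13.02 ± 0.12 in CDP and 11.39 ± 0.51 in CMP (SD, n = 3 and n = 2). CDP 2 held neutrophil transcripts: 6 of 7 markers reached log2 5, with a summed value of 75.6, against 31.6 and 32.2 on the other CDP arrays and 35.6 and 37.2 on the CMP arrays. S100a8, for example, had 12.52 on CDP 2 and at most 3.40 elsewhere. Mast cell and basophil markers summed to 14.8, 15.7 and 15.1 on the CDP arrays, against 30.1 and 25.6 on the CMP arrays, and their part in the values below was not tested. In such bulk samples, fewer cells of a type and less RNA per cell cannot be told apart.

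No respiratory chain gene differed between CDP and CMP past the threshold, and the members were spread about evenly on either side of zero. Of 85 genes, 74 (133 probe sets) reached log2 5 on at least 2 arrays and were tested, each by its brightest probe set. In limma, with Benjamini-Hochberg adjustment over all 16552 tested probe sets and a threshold of 0.05, 0 of the 74 were called, and the lowest adjusted p was 0.186. In the same fit 2.14% of all 8449 tested genes, and 1.73% of all tested probe sets, were called. At an unadjusted p under 0.05, 4 of the 74 (5.41%) passed, Ndufs8, Uqcrfs1, Ndufa12 and Ndufaf4, against 17.1% of all tested genes. That count was 0 without CDP 2, the array with neutrophil transcripts, 2 without CDP 3, and 11 when CDP 1 and CMP 1 were left out together, where 9.93%, 9.87% and 29.7% of all tested genes passed. A difference of more than 1 log2 unit was found for 4 of the 74 (5.41%), Ndufs8, Ndufa4, Ndufaf4 and Atp5mpl, against 19.0% of all tested genes. Without CMP 1 it was found for 12 of the 74, against 24.7% of all tested genes. Without CMP 2 it was found for 10 of the 74, against 28.6%.

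The 74 differences, CDP minus CMP, ran from -1.26 to 1.31 log2 units, 36 positive and 38 negative. Their median was -0.04, against 0.17 over all tested genes, which places it 0.21 below the array-wide median. Leaving out 1 array at a time, the members' median ran from -0.25 (without CMP 1) to 0.19 (without CDP 1), so its sign rests on single arrays, and its place relative to all tested genes ran from -0.35 to -0.04. The median size of a difference was 0.31, against 0.46 over all tested genes. The spread between arrays limits these statements: the median standard error was 0.39, and the 95% interval lay within 1 log2 unit of zero for 4 of 74 genes (Ndufab1, Ndufb2, Ndufv3 and Cox6c). All 3 CDP arrays lay above both CMP arrays for 7 genes, where 23.7% of all tested genes did, and below both for 9 genes, where 10.8% did. In the remaining 58 genes the groups overlapped.

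**Figure D1:**
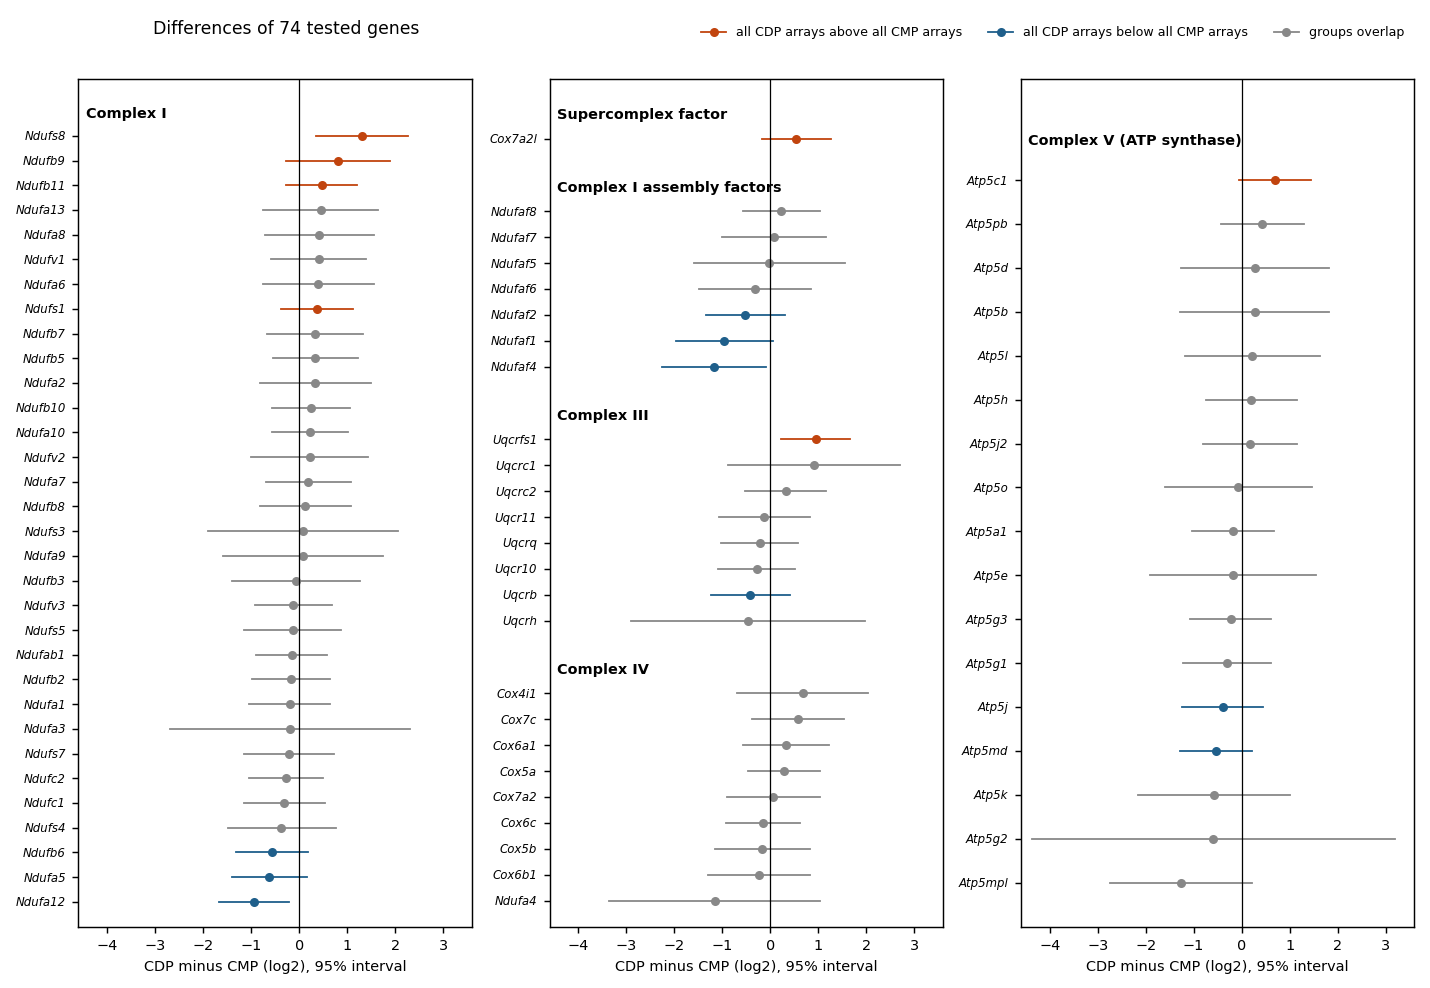
Difference of each of the 74 tested genes by complex, CDP minus CMP in log2 units (horizontal axis), with its 95% interval from the limma fit; colour marks whether the 3 CDP and 2 CMP arrays overlap. The points run from -1.26 (Atp5mpl) to 1.31 (Ndufs8), and 58 of the 74 genes are grey because their groups overlap.

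The members' shared regulation is usually described through NRF1, ETS-family (GABP) and YY1 sites near the start of transcription. Promoters are shown of the matching genes with the most positive and the most negative difference for NRF1 (Uqcrc1 and Ndufaf4) and for ETS (Ndufs8 and Ndufaf1), so 4 of the 5 were chosen for holding a match. Ndufa12, with the most probe sets below CMP, has none. RefSeq windows of GRCm38.p6, running from 250 bases before to 50 after the start, matched 71 of the 85 genes (76 windows). The strings searched, on both strands, were GCGC and TGCGC with 1 base of any kind between them (NRF1), CCGGAAG (ETS) and AAGATGGC (YY1). The ETS and YY1 strings can share the letters AAG, but in 0 of the 76 windows did matches of different motifs share a base. In each line below, the 220 bases before the start and 30 bases after it are written 5′ to 3′ along the gene, with the matched letters in capitals.
Uqcrc1, chr9:108936428-108936677, plus strand, with an NRF1 match and a further one outside the shown bases: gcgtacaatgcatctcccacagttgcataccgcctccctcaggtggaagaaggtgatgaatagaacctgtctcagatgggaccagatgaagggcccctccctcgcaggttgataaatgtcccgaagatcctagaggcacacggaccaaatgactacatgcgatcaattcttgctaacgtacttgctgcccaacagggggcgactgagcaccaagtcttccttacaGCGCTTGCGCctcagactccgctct
Ndufaf4, chr4:24897863-24898112, plus strand, with an NRF1 match: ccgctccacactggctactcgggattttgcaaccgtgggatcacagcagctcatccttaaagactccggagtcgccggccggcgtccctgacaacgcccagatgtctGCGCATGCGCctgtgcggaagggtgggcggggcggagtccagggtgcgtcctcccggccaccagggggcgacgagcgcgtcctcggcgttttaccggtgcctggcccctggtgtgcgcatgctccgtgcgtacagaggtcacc
Ndufs8, chr19:3912745-3912994, minus strand, with an ETS match on the opposite strand: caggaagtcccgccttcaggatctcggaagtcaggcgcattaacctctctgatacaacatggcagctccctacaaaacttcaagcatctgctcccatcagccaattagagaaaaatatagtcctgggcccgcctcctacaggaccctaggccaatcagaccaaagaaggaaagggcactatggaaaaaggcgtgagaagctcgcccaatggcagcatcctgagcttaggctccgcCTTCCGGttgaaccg
Ndufaf1, chr2:119662805-119663054, minus strand, with an ETS match: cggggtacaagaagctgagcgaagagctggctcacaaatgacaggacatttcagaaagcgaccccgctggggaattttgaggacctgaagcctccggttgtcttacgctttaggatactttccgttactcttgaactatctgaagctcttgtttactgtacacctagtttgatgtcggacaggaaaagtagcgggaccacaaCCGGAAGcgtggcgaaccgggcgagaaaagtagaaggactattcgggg
Ndufa12, chr10:94198815-94199064, plus strand, with no match: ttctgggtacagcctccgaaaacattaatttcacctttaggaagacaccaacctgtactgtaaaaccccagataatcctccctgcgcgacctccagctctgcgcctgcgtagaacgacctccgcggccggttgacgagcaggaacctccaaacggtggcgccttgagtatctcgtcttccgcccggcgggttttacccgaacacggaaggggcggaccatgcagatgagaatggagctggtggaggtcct

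An NRF1 match stood in 16 of the 76 member windows (21.1%), against 4.60% of all 32851 windows of this length and 11.6% of those of tested genes. ETS matches were in 17 windows (22.4%), against 8.86% of all and 20.4% of tested genes' windows. YY1 matches were in 10 windows (13.2%), against 2.75% of all and 5.15% of tested genes' windows. Genes with a match lay on both sides of zero. The 14 tested genes with an NRF1 match had a median difference of -0.05 (range -1.17 to 0.91), and the 49 without one 0.06 (range -1.16 to 1.31). The 16 with an ETS match had a median of -0.16 and the 47 without one 0.06, and the 10 with a YY1 match -0.06 and the 53 without one -0.02. A match is a stretch of letters and not a shown binding site.

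Complex I had 34 member genes, 32 of them tested, with 18 positive and 14 negative differences and a median of 0.11, which falls to -0.02 when each array is centred on the median of its tested probe sets and runs from -0.05 to 0.23 as 1 array at a time is left out. The 6 tested core subunits, most of which carry the cofactors that electrons pass along, had a median of 0.30. The 26 accessory subunits, which surround and stabilise that core, had 0.01. Without CMP 1 these medians were 0.07 and -0.05. Ndufs8, a core subunit that holds iron-sulfur clusters, had the most positive difference of all members. Its values were 11.36, 12.13 and 12.27 on the CDP arrays, against 10.49 and 10.73 on the CMP arrays. The groups did not overlap, and the difference of 1.31 ± 0.39 (SE) had an adjusted p of 0.186 in limma. All 5 of its tested probe sets had a positive difference, between 0.90 and 1.31, and 4 of the 5 showed no overlap.

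By the brightest probe set the other core subunits were closer together between the groups. Ndufs1, the largest subunit of the arm that takes up electrons, had 10.35, 10.45 and 10.47 in CDP, against 9.86 and 10.22 in CMP. All CDP arrays lay above the CMP arrays, but the difference was 0.38 ± 0.31 (adjusted p = 0.622, limma). Ndufv1, which binds the flavin that accepts electrons from NADH, had a difference of 0.41 ± 0.41, and Ndufv2, its iron-sulfur partner, 0.22 ± 0.50. The 3 tested probe sets of Ndufv2 ran from 0.22 to 0.86. In the probe set with 0.86 ± 0.39 (adjusted p = 0.358, limma) all CDP arrays lay above both CMP arrays, and in the others the groups overlapped. Ndufs7, which holds the last iron-sulfur cluster before ubiquinone, had -0.22 ± 0.39. Ndufs3 had 8.60, 10.46 and 9.83 in CDP, against 8.42 and 10.65 in CMP, where the lowest array of each group was the one low in 5′ signal, and its difference was 0.09 ± 0.82.

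Among accessory subunits, Ndufa12, which sits on the NADH-oxidising arm, had the most negative difference. Its values were 10.41, 10.56 and 10.68 in CDP, against 11.51 and 11.47 in CMP. The CDP arrays were all lower and close together, with a difference of -0.94 ± 0.30 and an adjusted p of 0.211 in limma. Its 4 tested probe sets ran from -1.23 to -0.79, and 3 of the 4 showed no overlap. Ndufa5, another subunit of that arm, had 10.31, 10.82 and 10.62 in CDP, against 11.11 and 11.30 in CMP, a difference of -0.62 ± 0.32. Ndufb6, of the membrane arm, had 12.16, 11.84 and 11.96 in CDP, against 12.42 and 12.67 in CMP, a difference of -0.56 ± 0.31. By the brightest probe set both of these also lay below CMP on every CDP array, with adjusted p-values of 0.426 and 0.450 in limma. The other tested probe set of Ndufa5 had -0.90 ± 0.60 and that of Ndufb6 -0.42 ± 0.36, each with overlap between the groups.

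Other membrane arm subunits lay on the opposite side. Ndufb9 had 11.96, 11.93 and 12.29 in CDP, against 11.87 and 10.63 in CMP. By this probe set its difference of 0.81 ± 0.45 came mostly from the low value of CMP 2. Its other tested probe set had 0.66 ± 0.56 with overlap, and there CMP 1 was the lower CMP array (7.54 against 8.82). Ndufb11 had 12.83, 12.83 and 12.98 in CDP, against 12.55 and 12.28 in CMP, a difference of 0.47 ± 0.30. By the brightest probe set the CDP arrays were above the CMP arrays in both genes, with adjusted p-values of 0.451 and 0.525 in limma. The 9 tested Ndufb subunits had a median of 0.24, the 12 tested Ndufa subunits of this complex 0.13, and the 2 Ndufc subunits -0.29.

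Assembly factors of complex I, which are not part of the finished enzyme, had negative differences for 5 of 7 tested genes, with a median of -0.32 (0.29 without CMP 2) and 0 called. Ndufaf4, which acts in early assembly, had 9.23, 8.21 and 8.31 in CDP, against 10.06 and 9.45 in CMP. The groups did not overlap in either of its 2 probe sets, and its difference was -1.17 ± 0.44 (adjusted p = 0.278, limma). Ndufaf1, which acts on an intermediate of the membrane arm, had 8.16, 8.53 and 8.38 in CDP, against 8.79 and 9.84 in CMP, a difference of -0.96 ± 0.41 (adjusted p = 0.334, limma). Ndufaf2, which acts late in assembly, had 7.85, 8.06 and 8.46 in CDP, against 8.74 and 8.55 in CMP, a difference of -0.52 ± 0.34. These 3 genes lay below CMP on every CDP array, whereas Ndufaf5, Ndufaf6, Ndufaf7 and Ndufaf8 overlapped between the groups; 10.8% of all tested genes lay below in this way. Ndufaf3 was not tested, since it reached log2 5 only on CDP 2 (5.24).

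**Figure D2:**
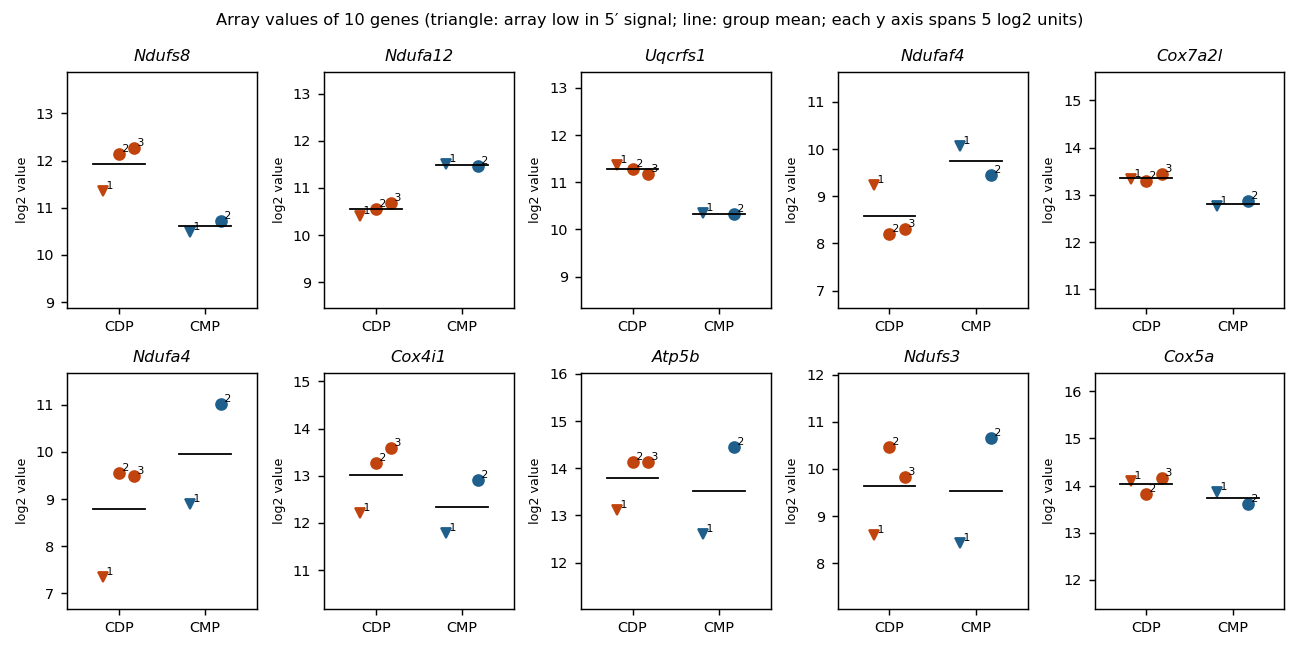
Log2 value on each array (vertical axis, the same span of 5 log2 units in each panel) of 10 genes chosen after their values were seen, with CDP left and CMP right; numbers are replicates, triangles the arrays low in 5′ signal and lines group means. The groups stand apart for Ndufs8, Ndufa12, Uqcrfs1, Ndufaf4 and Cox7a2l. The triangles lie lowest within each group in Ndufs8, and also in Ndufa4, Cox4i1, Atp5b and Ndufs3, where the groups overlap.

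Complex III had 8 genes, all tested, with 3 positive and 5 negative differences and a median of -0.18 (-0.34 to 0.14 as 1 array at a time is left out). Uqcrfs1, the Rieske iron-sulfur subunit that passes electrons towards cytochrome c, had 11.36, 11.29 and 11.18 in CDP, against 10.35 and 10.32 in CMP. The arrays of each group agreed closely and the groups did not overlap, with a difference of 0.94 ± 0.30 and an adjusted p of 0.206 in limma. The 2 large core proteins were less even. Uqcrc1 had 9.47, 10.74 and 10.91 in CDP, against 8.43 and 10.50 in CMP, and its difference of 0.91 ± 0.74 was -0.12 without CMP 1. Uqcrc2 had a difference of 0.32 ± 0.34. Small subunits lay on the negative side: Uqcrb, which lies by the ubiquinone site, had 13.50, 14.03 and 14.01 in CDP, against 14.18 and 14.35 in CMP, a difference of -0.42 ± 0.34 without overlap. Its other tested probe set had -0.87 ± 0.74 with overlap. Uqcr10 had a difference of -0.28 ± 0.33. Uqcrh, the hinge protein, had -0.46 ± 1.00, with values from 7.54 to 10.04 within CDP and 7.94 and 10.64 in CMP.

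Complex IV had 17 member genes, of which 9 were tested. By the brightest probe set the groups overlapped in all 9, as they did in 5534 of all 8449 tested genes. In another probe set of Cox7c (difference 0.72) and of Cox5a (0.17) all CDP arrays lay above CMP. The median of the 9 genes was 0.06, with 5 positive and 4 negative differences, and it was -0.07 when arrays were centred on their medians. Ndufa4, now counted as a subunit of complex IV despite its name, had 7.34, 9.56 and 9.48 in CDP, against 8.90 and 11.01 in CMP. Its difference was -1.16 ± 0.90 (adjusted p = 0.609, limma), and the array low in 5′ signal was the lower one in each group. Cox4i1, a subunit that regulates the enzyme, had 12.21, 13.26 and 13.58 in CDP, against 11.78 and 12.91 in CMP, a difference of 0.67 ± 0.56. Cox7c had 0.57 ± 0.40, Cox6a1 0.32 ± 0.37 and Cox6b1, which faces cytochrome c, -0.24 ± 0.44. Cox5b had 13.18, 13.45 and 13.40 in CDP, against 12.99 and 14.04 in CMP, so that both CMP arrays lay outside the range of CDP, 1 on either side.

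Isoforms known from particular tissues were not above the detection level of log2 5. Cox4i2 (lung), Cox6b2 (testis), Cox7a1 (heart and muscle), Cox8b (muscle), Cox8c (testis), Cox7b2 and Ndufa4l2, a gene induced by low oxygen, were below that level on all 5 arrays. Cox4i2, Cox7b2, Cox8b, Cox8c and Ndufa4l2 stood at the lowest value of the table on every array. Their partners Cox4i1, Cox6b1, Cox7a2 and Ndufa4 were all tested, and Cox7a2 had 11.19, 10.85 and 11.41 in CDP, against 11.53 and 10.65 in CMP (difference 0.06 ± 0.40). Probe sets of Cox8a, the widely expressed isoform, and of the complex I subunits Ndufb1 and Ndufb4 also stayed below log2 5 on every array, so these genes had no usable measurement.

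Cox7a2l, described as a factor for joining complexes III and IV, had 13.33, 13.29 and 13.45 in CDP, against 12.76 and 12.87 in CMP. All CDP arrays were higher, by 0.54 ± 0.30 in the mean (adjusted p = 0.445, limma). Its 3 tested probe sets had differences of 0.54, 0.71 and 0.70 and showed no overlap in any of them. Cox7a2l and Ndufaf4 were the 2 genes, of 39 with several tested probe sets, in which every probe set lay on 1 side without overlap, against 11.6% of the 3590 genes with several tested probe sets. Whether the Cox7a2l product is active in this mouse strain was not measured, so its RNA level does not speak to supercomplexes.

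Complex V, the ATP synthase, had 17 genes, all tested, with 7 positive and 10 negative differences and a median of -0.18. The 5 subunits of the catalytic F1 head had a median of 0.27, and the 12 genes of the membrane part and the stalk -0.27. These opposite signs were not seen among the arrays outside the low 5′ signal pair, where the medians were -0.20 and -0.32, and without CMP 1 they were -0.26 and -0.55. Between CDP 1 and CMP 1 they were 0.03 and -0.25. Atp5c1, the central shaft of the head, had 13.51, 13.61 and 13.76 in CDP, against 13.08 and 12.79 in CMP. The CDP arrays were all higher, by 0.69 ± 0.31 (adjusted p = 0.353, limma). Its other tested probe set had a difference of 0.02 ± 0.63, and there the groups overlapped. Atp5b, the catalytic subunit, had 13.12, 14.13 and 14.13 in CDP, against 12.60 and 14.44 in CMP, and its difference of 0.27 ± 0.64 was -0.65 without CMP 1 and 1.19 without CMP 2. Atp5a1, its non-catalytic partner in the head, had -0.18 ± 0.35, and Atp5d, of the shaft, 0.28 ± 0.63. Atp5pb, of the peripheral stalk, had 0.43 ± 0.36.

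The membrane part held the most negative differences. Atp5mpl, a small associated protein, had 8.24, 9.21 and 8.31 in CDP, against 8.98 and 10.72 in CMP. CDP 2 lay above CMP 1, and the difference was -1.26 ± 0.61 (adjusted p = 0.386, limma). Atp5k, a subunit that helps the enzyme form dimers, had 9.42, 11.35 and 11.24 in CDP, against 10.98 and 11.52 in CMP, a difference of -0.58 ± 0.65. The Atp5g genes encode the same mature protein of the rotating ring, and they were uneven in precision. Atp5g2 had 4.57, 8.74 and 6.57 in CDP, against 5.16 and 9.27 in CMP, a difference of -0.59 ± 1.55. Atp5g1 had -0.30 ± 0.38 and Atp5g3 -0.23 ± 0.35. Atp5md and Atp5j, of the membrane part and the stalk, lay below CMP on every CDP array, with differences of -0.54 ± 0.31 and -0.39 ± 0.35.

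Pooled over the chain, the gap between the arrays low in 5′ signal and the others was larger than that between the cell types, but the complexes differed. Each low array lay below the mean of the other arrays of its own group for 46 of 74 genes (62.2%), against 40.6% of all tested genes, and for 14 of 17 genes of complex V (82.4%). On average over both groups, members were 0.38 lower on these arrays in the median and complex V genes 0.69 lower, against 0.08 over all tested genes. This gap was larger than the difference between CDP and CMP for 48 of 74 genes (64.9%; 52.5% of all tested genes). In complex IV the arrays low in 5′ signal were instead 0.17 higher in the median, both being lower for 3 of 9 genes and higher for 5 of 9. In complex III the median sizes of the 2 gaps were 0.36 (5′ signal) and 0.37 (cell types). Complex V genes deviated from the mean of the 2 group means by a median of -0.57, 0.39 and 0.19 on the CDP arrays and by -0.35 and 0.42 on the CMP arrays. Probe sets whose ID ends in _at alone were 0.84 lower on the arrays low in 5′ signal (23 genes), and those marked as able to match several transcripts 0.24 lower (51 genes).

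**Figure D3:**
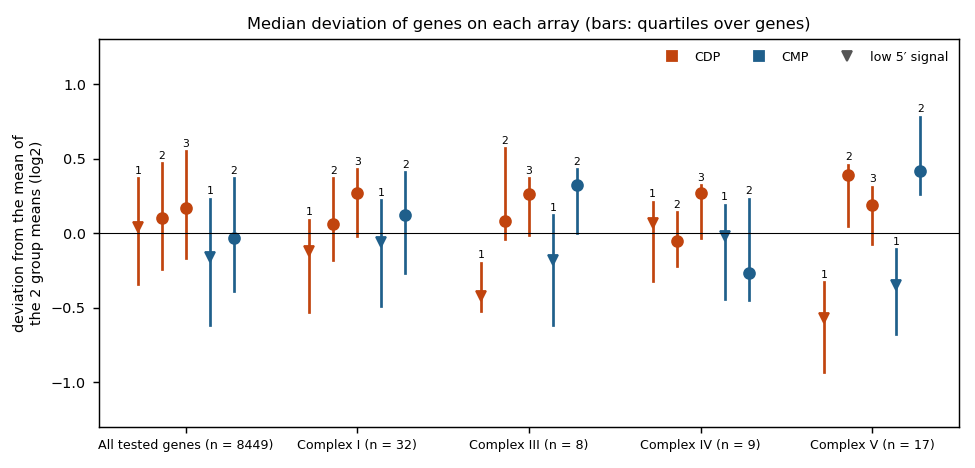
Median deviation of each array from the mean of the 2 group means in log2 units (vertical axis), for all tested genes and for the genes of each complex, with quartiles over genes as bars and array numbers above them. In complex V the triangles, arrays low in 5′ signal, lie at -0.57 (CDP 1) and -0.35 (CMP 1), below the other 3 arrays.

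Within each kind of array the comparison rests on single CMP arrays. CDP 1 minus CMP 1 had the same sign as the mean of CDP 2 and CDP 3 minus CMP 2 for 45 of 74 genes (60.8%), 19 positive in both and 26 negative in both, against 67.8% of all tested genes. The median was -0.06 within either kind. By complex, it was 0.00 on the arrays low in 5′ signal and 0.04 on the others for complex I, -0.24 and -0.17 for complex III, -0.02 and 0.38 for complex IV, and -0.14 and -0.29 for complex V. With the low 5′ signal as a block in the limma fit, 2 of 74 members passed, against 9.76% of all tested genes. Ndufa4 then fell by 1.52 ± 0.25 log2 units in CDP (adjusted p = 0.0203), with single values of 7.34 on CDP 1 against 8.90 on CMP 1, and 9.56 and 9.48 on CDP 2 and 3 against 11.01 on CMP 2. Ndufs8 rose by 1.21 ± 0.28 (adjusted p = 0.0492) in the same fit.

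**Figure D4:**
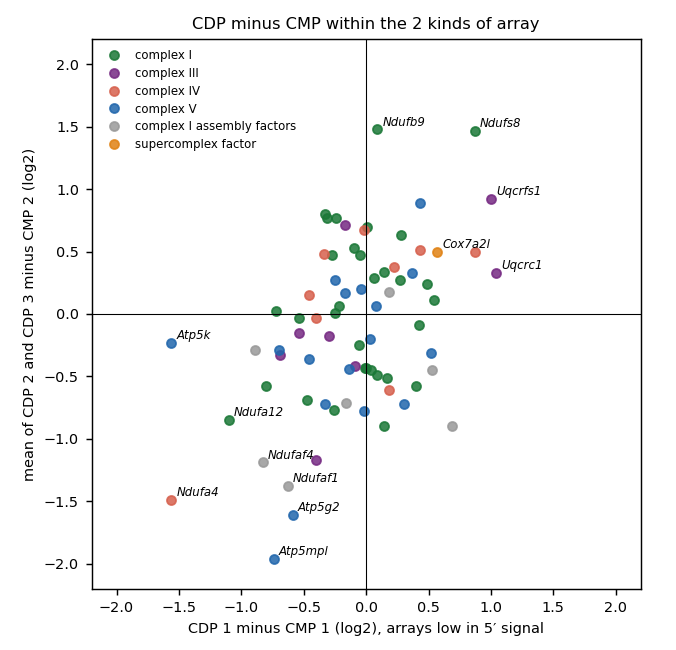
Each point is 1 of the 74 genes, coloured by complex, with CDP 1 minus CMP 1 (horizontal axis, log2) against the mean of CDP 2 and CDP 3 minus CMP 2 (vertical axis, log2). Ndufs8 and Uqcrfs1 lie in the upper right and Ndufa4, Ndufa12 and Ndufaf4 in the lower left; 45 of 74 genes have the same sign on both axes.

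Probe sets of 1 gene did not always go the same way. Of 39 genes with several tested probe sets, 30 had 1 sign throughout and 9 did not, where 36.9% of the 3590 genes with several disagreed: Atp5a1, Atp5j2, Cox5b, Cox6a1, Cox6c, Ndufa7, Ndufb5, Ndufs4 and Ndufs7. The 4 probe sets of Ndufs4, an accessory subunit on the electron-accepting arm, ran from -0.37 to 0.69. Those of Atp5a1 ran from -1.20 to 0.05, and those of Cox5b from -0.66 to 0.24. Ndufs7 had -0.22 by its brightest probe set and 0.49 by the other. Ndufa7, Ndufb5, Atp5j2, Cox6a1 and Cox6c crossed zero with no probe set beyond -0.35 or 0.38. The probe set standing for the gene ended in _a_at, _s_at or _x_at, marked as able to match several transcripts, in 51 of 74 genes. The ending _a_at marks several transcripts of the same gene. Transcripts of related genes and pseudogenes may contribute mainly where the ending is _s_at or _x_at.

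**Figure D5:**
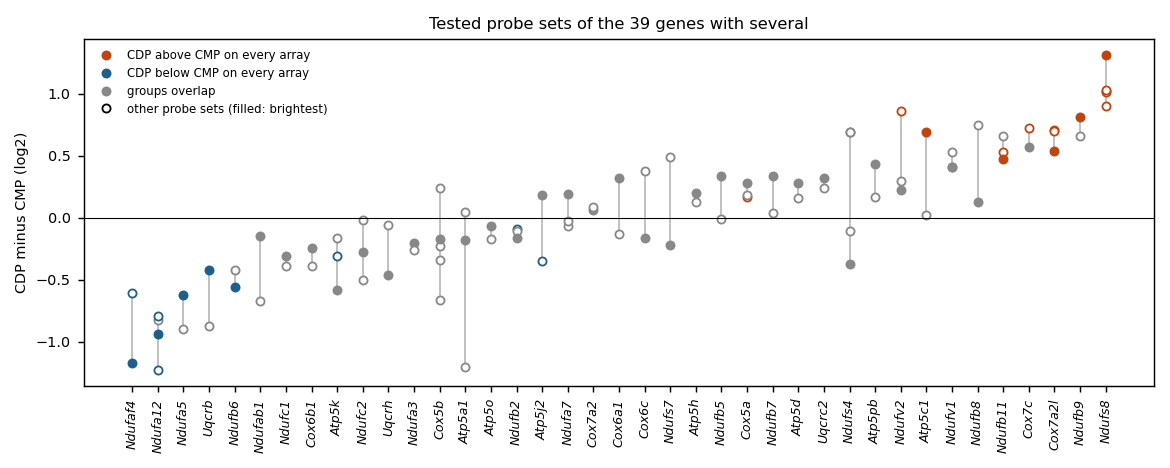
CDP minus CMP in log2 units (vertical axis) for every tested probe set of the 39 genes with several (horizontal axis, ordered by median); filled points are the brightest probe set, open points the others, and colour marks overlap between groups. All 5 probe sets of Ndufs8 lie between 0.90 and 1.31 and all 4 of Ndufa12 between -1.23 and -0.79, whereas those of Ndufs4, Atp5a1 and Cox5b cross zero.

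Other genes of the pathway likewise had 0 called. In complex II, which oxidises succinate, Sdhb, the iron-sulfur subunit, had 10.26, 10.98 and 11.40 in CDP, against 10.08 and 10.11 in CMP, a difference of 0.78 ± 0.42 without overlap (adjusted p = 0.436, limma). Sdha, the flavoprotein, had -0.16 ± 0.39, Sdhc -0.29 ± 0.55 and Sdhd 0.00 ± 0.87, the last 2 being membrane anchors. Cycs, cytochrome c itself, had -0.20 ± 0.40 and Cyc1, the cytochrome of complex III, 0.25 ± 0.37. The mitochondrially encoded ND5, a proton-pumping subunit of complex I, had 12.51, 12.94 and 12.81 in CDP, against 13.50 and 13.37 in CMP. It lay lower on every CDP array, by 0.68 in the mean (SE 0.32, adjusted p = 0.367, limma), and it was the only mitochondrially encoded gene tested.

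Mitochondrial lists showed medians near those of the subunits. The 73 tested genes of the mitochondrial ribosome had a median of 0.05 (42 positive, 31 negative), the 21 of protein import -0.11, and the 29 other assembly factors -0.06. The 15 tested genes of mitochondrial biogenesis had a median of -0.23, and the 7 carriers and channels -0.05. Ppargc1b, a coactivator of mitochondrial genes, had 5.64, 5.63 and 5.72 in CDP, against 7.14 and 6.14 in CMP (difference -0.98 ± 0.39, adjusted p = 0.304, limma). The transcription factor Nrf1 had 9.20, 7.52 and 7.03 in CDP, against 9.15 and 9.88 in CMP, a difference of -1.60 ± 0.69 with CDP 1 inside the range of CMP (adjusted p = 0.333, limma). Over the alternative settings the Nrf1 difference ran from -2.6 to -0.2. Leaving out 1 array at a time, it ran from -2.24 to -1.16. Gabpa, the DNA-binding part of GABP, had 0.03 ± 0.34 and Yy1 0.06 ± 0.33. Atpif1, the inhibitor of ATP synthase, had 12.38, 11.78 and 11.92 in CDP, against 12.73 and 12.91 in CMP, a difference of -0.79 ± 0.34 without overlap (adjusted p = 0.330, limma). Ppargc1b, Nrf1, Gabpa, Yy1, ND5 and Atpif1 were singled out after their values were seen.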

How the data were processed

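The table holds log2 values of 45037 probe sets and 64 control probe sets. Per the labels' protocols, extraction used Trizol with linear acrylamide, and the RNA was amplified in 2 rounds and labelled with biotin for Affymetrix mouse whole-genome arrays. Per the submitters' processing notes, the authors made the deposited log2 values with GCRMA, which corrects background, normalizes quantiles and summarises probes. Its version, and whether all arrays were processed together, are not given in the sources used here. Precision is limited by the number of arrays.

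Groups came from the sample titles, of which CDP 3 alone starts with CM and the rest with BM. Of the probe sets, 34945 had 1 symbol, 932 several and 9160 none in the platform annotation, and 10 probe sets with several symbols that include a member's were left out. All 85 gene identifiers were found in the RefSeq table of GRCm38.p6 and 0 symbols changed. Probe sets with at least 2 of 5 arrays at log2 5 or more were tested without further normalization in limma 3.58.1 (R 4.3.3; lmFit, eBayes, two-sided, 3 residual and 3.14 prior degrees of freedom). Means are given with SD and differences (CDP minus CMP) with the standard error of the fit. Arrays were called low in 5′ signal where 5′ beta-actin was below log2 8.

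The members, lists, tests and 19 alternatives were chosen with earlier results of these data known. Genes were named by rule: the 3 most positive and 3 most negative of each complex, isoform pairs, nuclear core subunits of complex I, genes whose probe sets disagree in sign, complex II and cytochrome c. Assembly factors, Cox7a2l and others beyond the rule were named after their values were seen. The procedure was tested on simulated data whose set differences were larger than that of any member. That test does not show how often differences of the members' size would be called. No array was left out of the main values, and 1 gene is not reported here.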

Additional observations from a re-analysis of the deposited data

How the results depend on the processing

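The count of called members stayed at 0 under 18 of 19 alternatives and was 2 when low 5′ signal was fitted as a block. Quantile normalization moved the median of all tested genes by -0.10 and median centring by -0.13, and the members' median relative to it was -0.18 and -0.21, against -0.21 as reported. That relative median was -0.06 with array weights, -0.10 with probe sets averaged, 0.00 without a filter, -0.04 without CDP 1, -0.09 without CMP 2 and -0.35 without CMP 1. With 2 CMP arrays, each CMP value carries much of every difference. The median of complex IV was 0.38 without both arrays low in 5′ signal. Leaving out 1 array at a time, the medians ran from -0.25 to 0.19 for all members, from -0.05 to 0.23 for complex I, from -0.34 to 0.14 for complex III, from -0.07 to 0.31 for complex IV (0.31 without CMP 1) and from -0.54 to 0.53 for complex V (0.53 without CMP 2).

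Replicates 1 and 2 occur in both groups. Deviations of same-numbered arrays correlated at 0.606 and 0.579, but there are only 2 such pairs, and the labels tie the numbers to no animal or day. Deviations of the 2 CMP arrays mirror each other, so these 2 values are not separate evidence. CDP 3, which has no CMP array of its number, correlated at 0.326 with CMP 2. The pair numbered 1 is also the pair low in 5′ signal, so for it replicate number and kind of array cannot be told apart. With the replicate block, 0 members were called, as without it, and Atp5d was -0.02, Cox7a2 -0.07 and Ndufs3 -0.01.

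Of 46 named members, 25 kept their sign under every alternative run, and the cause of the other sign changes was not tested. With low 5′ signal as a block Ndufs3 was -0.22. With array weights Atp5g2 was 0.17, Gabpa -0.08, Sdhd 0.38, Uqcrh 0.01 and Yy1 -0.02. With probe sets averaged per gene Atp5j2 was -0.09, Cox6c 0.11, Ndufs4 0.23, Ndufs7 0.13 and Sdhd 0.04. With median centring Cox7a2 was -0.07, Gabpa -0.10, Ndufs3 -0.04 and Yy1 -0.07, and with quantile normalization Gabpa was -0.02. Without both arrays low in 5′ signal Atp5b was -0.31, Cox6b1 0.15, Ndufa7 -0.09, Ndufs3 -0.51 and Ndufs7 0.02. Without probe sets ending in _a_at, _s_at or _x_at Atp5a1 was 0.05, Atp5j2 -0.35, Cox5b 0.24, Cox6c 0.38, Ndufb5 -0.01 and Ndufs7 0.49.

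Leaving out 1 array at a time, these genes changed sign within their ranges. In complex I, Ndufa7 ran from -0.12 to 0.50, Ndufb5 from -0.06 to 0.74, Ndufs3 from -1.02 to 1.20, Ndufs4 from -0.92 to 0.19, Ndufs7 from -0.42 to 0.05, Ndufv1 from -0.06 to 0.87 and Ndufv2 from -0.40 to 0.84. In complex III, Uqcrc1 ran from -0.12 to 1.94 and Uqcrh from -1.81 to 0.89. In complex IV, Cox5b ran from -0.70 to 0.35, Cox6a1 from -0.03 to 0.68, Cox6b1 from -0.79 to 0.31 and Cox7a2 from -0.38 to 0.50. In complex V, Atp5b ran from -0.65 to 1.19, Atp5d from -0.26 to 0.82, Atp5g2 from -2.64 to 1.47, Atp5g3 from -0.54 to 0.07, Atp5j2 from -0.17 to 0.53 and Atp5k from -0.92 to 0.04. Elsewhere, Sdha ran from -0.66 to 0.35, Sdhc from -1.08 to 0.49, Sdhd from -1.25 to 1.24, Cyc1 from -0.04 to 0.53, Cycs from -0.43 to 0.06, Gabpa from -0.18 to 0.23 and Yy1 from -0.15 to 0.26.

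Ndufs8 stayed between 1.02 and 1.59, Uqcrfs1 between 0.81 and 0.99, Ndufa12 between -1.23 and -0.85, Ndufaf4 between -1.50 and -0.87 and Ndufa4 between -2.22 and -0.11 over the alternatives, with adjusted p-values of 0.0492 to 0.572, 0.0696 to 0.579, 0.0719 to 0.579, 0.0631 to 0.741 and 0.0203 to 0.983 for each in turn.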
